A study of Mus musculus with 6 samples.

Results

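Striatal projection neurons are the inhibitory output neurons of the striatum, and 9 genes by which they are commonly recognised (Drd1, Drd2, Adora2a, Penk, Tac1, Ppp1r1b, Ptpn5, Rgs9 and Pde10a) were followed here in hippocampal tissue of a mouse model of Alzheimer's disease. Members were all probe sets assigned to exactly 1 of these symbols in the array annotation. This gave 18 probe sets of 8 genes, out of 45037 probe sets and 18193 genes that were not controls. Adora2a, an adenosine receptor gene, was not analysed here. The genes were chosen with their differences between the 3 groups already known, so those differences are given as a description and without a test.

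The chips carried biotin-labelled RNA of hippocampi from male Tg2576 mice on the C57BL/6 strain (C57BL/6J in the methods), which overproduce the human amyloid precursor protein in its Swedish mutant form (APPSwe) and deposit Aβ plaques as they age. Mice of the Tg-18mo-ACEI group were 18 months old and had drunk captopril, an inhibitor of angiotensin-converting enzyme that enters the brain, for 6 months at a dose of 20 mg/kg/day. Mice of the Tg-18mo group were 18 months old, untreated and with a high plaque load, and mice of the Tg-12mo group were 12 months old, untreated and with a low plaque load, the stage at which captopril was begun. Each group had 2 chips and each chip held the RNA of 4 mice. The transgene is driven by the prion protein promoter, described in the methods as neuron-specific, and all 3 groups carried it, so no level without the transgene was measured. The submitters call the 2 chips of a group biological replicates, and the spread reported is therefore between pools and not between single mice.

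As background, striatal projection neurons fall into a direct pathway class, which carries the dopamine D1 receptor and the substance P precursor Tac1, and an indirect pathway class, which carries the dopamine D2 receptor, the adenosine receptor encoded by Adora2a and the enkephalin precursor Penk. Dopamine acts through the D1 receptor to raise cAMP and through the D2 receptor to lower it, and DARPP-32 (Ppp1r1b), the striatal-enriched phosphatase STEP (Ptpn5), RGS9 and PDE10A shape the signal inside the cell. None of these genes is exclusive to the striatum. In hippocampus, D1 receptors occur on granule cells and interneurons, Penk in granule cells and interneurons, and Ptpn5 in pyramidal neurons, so a hippocampal signal of these genes does not name its source cell.

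The promoters of Drd1, Drd2 and Tac1 are shown because the 3 genes stand for the 2 receptor classes and the peptide class and because their signals differed in how they varied over the chips. RefSeq promoters (GRCm38.p6) were found for 6 of the 9 genes, Drd1, Drd2, Tac1, Ptpn5, Rgs9 and Pde10a. Sequences are written 5′ to 3′ on the strand of the gene, upstream of the annotated start. Drd1 is shown at chr13:54055659-54055908 (minus strand, the first of 2 annotated starts). Drd2 is shown at chr9:49340153-49340352 (plus strand, ending 51 bases before the start), and Tac1 at chr6:7554811-7555060 (plus strand). Capitals mark the core of the cAMP response element, TGACG, and the GC box, GGGCGG, on either strand.
Drd1: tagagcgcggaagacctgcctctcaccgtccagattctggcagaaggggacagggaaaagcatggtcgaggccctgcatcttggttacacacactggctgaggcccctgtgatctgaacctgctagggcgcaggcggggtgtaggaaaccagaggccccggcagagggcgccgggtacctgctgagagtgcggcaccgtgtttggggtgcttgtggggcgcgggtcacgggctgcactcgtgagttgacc
Drd2: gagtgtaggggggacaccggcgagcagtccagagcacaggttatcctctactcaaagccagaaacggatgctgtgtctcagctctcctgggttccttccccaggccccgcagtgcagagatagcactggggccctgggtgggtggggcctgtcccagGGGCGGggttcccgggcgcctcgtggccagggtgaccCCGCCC
Tac1: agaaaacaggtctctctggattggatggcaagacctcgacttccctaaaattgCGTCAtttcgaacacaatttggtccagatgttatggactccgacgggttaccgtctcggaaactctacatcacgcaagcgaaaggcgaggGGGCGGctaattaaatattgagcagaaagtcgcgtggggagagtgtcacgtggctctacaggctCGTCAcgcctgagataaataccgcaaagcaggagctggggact

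In the Tac1 window the TGACG core lay 197 and 43 bases before the start, and the GC box 107 bases before it. The distal core was part of TGCGTCA, the ENKCRE-2 motif named after the enkephalin gene, which began 199 bases before the start. In Drd2 GC boxes lay 93 and 56 bases before the start, and the Drd1 window shown held neither motif. The window of the second Drd1 start, not shown, held a GC box 133 bases before that start. Among 32851 promoter windows of 250 bases, 17.8% held TGACG, 1.75% held TGCGTCA and 32.7% held GGGCGG, both strands counted and TGCGTCA overlapping TGACG where CGTCA is shared. The full palindrome TGACGTCA, present in 1.55% of windows, was in none of the windows of the 6 genes. A match is a description of the letters and not a measured binding site.

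Signals are the deposited linear intensities, scaled by the authors to a target value of 600 on each chip. A probe set entered the comparisons when its mean reached 100 in 1 or more groups, which 23262 of all probe sets and 13 of the 18 probe sets of the striatal genes did. The 5 that did not were 1 probe set of Tac1, 2 of Rgs9 and 2 of Pde10a, with signals between 4.56 and 59.3. Just outside the limit, the highest group mean of these 5 was 54.9, and just inside it, a Ptpn5 probe set had a highest group mean of 103. Of the 13, only this Ptpn5 probe set (1425131_at) entered through the Tg-12mo group alone. Log2 differences and their standard errors (SE) are from limma, fitted on all 6 chips and all tested probe sets. The probe sets cannot be compared with each other in level, since each binds its RNA with its own efficiency.

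Before the results, the chips were compared. Over all probe sets on the log2 scale, the correlation was 0.931 to 0.954 within groups and 0.925 to 0.947 between groups. Gapdh had a 3′/5′ signal ratio of 0.828 to 0.862 throughout. The mean signal without trimming was 806 and 796 in Tg-18mo-ACEI, 805 and 817 in Tg-18mo, and 897 and 902 in Tg-12mo. The median signal was 90.3 to 94.9 on all chips. The part of the higher Tg-12mo mean in the differences of bright genes was not tested. In 3 control measures the chips differed between groups. The 3′ probe set of 18S ribosomal RNA gave 2214 and 2000 in Tg-18mo-ACEI, 10219 and 11144 in Tg-18mo, and 2125 and 2121 in Tg-12mo. The β-actin 3′/5′ ratio was 1.45 and 1.38 in Tg-18mo-ACEI, 1.98 and 1.88 in Tg-18mo, and 1.83 and 1.77 in Tg-12mo. Poly-A controls averaged 430 and 423 in Tg-18mo-ACEI, 186 and 179 in Tg-18mo, and 1247 and 1243 in Tg-12mo. The 18S signal thus stood apart on the same pair of chips as several of the striatal genes below, and its part in their differences was not tested.

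For the striatal genes, the Tg-18mo chips stood apart. Drd2, Penk, Ppp1r1b, both brighter Ptpn5 probe sets and 1 of the 2 Drd1 probe sets had higher signals on both Tg-18mo chips than on the 4 other chips. Pde10a ran the other way on 1 probe set, with its lowest signals on the Tg-18mo chips. Tac1, Rgs9, the brighter Drd1 probe set and the remaining probe sets of Pde10a and Ptpn5 did not have this pattern. Of all tested probe sets, 40.3% had both Tg-18mo chips above those of Tg-18mo-ACEI, and 40.9% had them above those of Tg-12mo. The share with both Tg-18mo chips above all 4 others was not counted, so nothing is read from how many genes had the pattern. In bulk tissue, fewer cells of a type and less RNA per cell cannot be told apart. The comparisons of Tg-18mo-ACEI and of Tg-12mo with Tg-18mo use the same 2 Tg-18mo chips, so a shared direction in them is not independent.

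Among the receptors, Drd2, the inhibitory dopamine receptor of the indirect pathway, had the widest log2 range of group means among the brightest probe sets. Its probe set (1418950_at) gave 127 and 91.5 in Tg-18mo-ACEI, 299 and 376 in Tg-18mo, and 97.8 and 82.6 in Tg-12mo. Both Tg-18mo chips lay far above the other 4, while the Tg-18mo-ACEI and Tg-12mo chips overlapped. The means were 109 ± 25.2 in Tg-18mo-ACEI, 338 ± 54.7 in Tg-18mo and 90.2 ± 10.7 in Tg-12mo (SD, n = 2 chips each). Drd2 was 3.09-fold lower in Tg-18mo-ACEI than in Tg-18mo, a log2 difference of -1.64 (SE 0.23). It was 3.74-fold higher in Tg-18mo than in Tg-12mo (log2 difference 1.90, SE 0.23). Between Tg-18mo-ACEI and Tg-12mo the log2 difference was 0.26 (SE 0.23), within the spread between chips.

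Drd1, the stimulatory dopamine receptor of the direct pathway, was read by 2 probe sets whose chip patterns differed. The brighter one (1456051_at) gave 363 and 418 in Tg-18mo-ACEI, 393 and 416 in Tg-18mo, and 387 and 392 in Tg-12mo. Its means of 390 ± 39.3 in Tg-18mo-ACEI, 404 ± 16.4 in Tg-18mo and 390 ± 3.83 in Tg-12mo (SD, n = 2 each) were close. The Tg-18mo-ACEI chips overlapped those of both other groups, and both Tg-18mo chips lay just above the Tg-12mo chips. Its log2 differences were -0.05 for Tg-18mo-ACEI minus Tg-18mo, 0.05 for Tg-18mo minus Tg-12mo and -0.00 for Tg-18mo-ACEI minus Tg-12mo (SE 0.11 each). The dimmer one (1455629_at) gave 142 and 150 in Tg-18mo-ACEI, 268 and 264 in Tg-18mo, and 144 and 138 in Tg-12mo, so that only the Tg-18mo chips were high. On it Drd1 was 1.82-fold lower in Tg-18mo-ACEI than in Tg-18mo (log2 difference -0.87, SE 0.15) and 1.89-fold higher in Tg-18mo than in Tg-12mo (0.92, SE 0.15). Tg-18mo-ACEI and Tg-12mo overlapped on it, with a log2 difference of 0.05 (SE 0.15). Which of the probe sets follows the Drd1 transcript more closely was not tested.

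**Figure D1:**
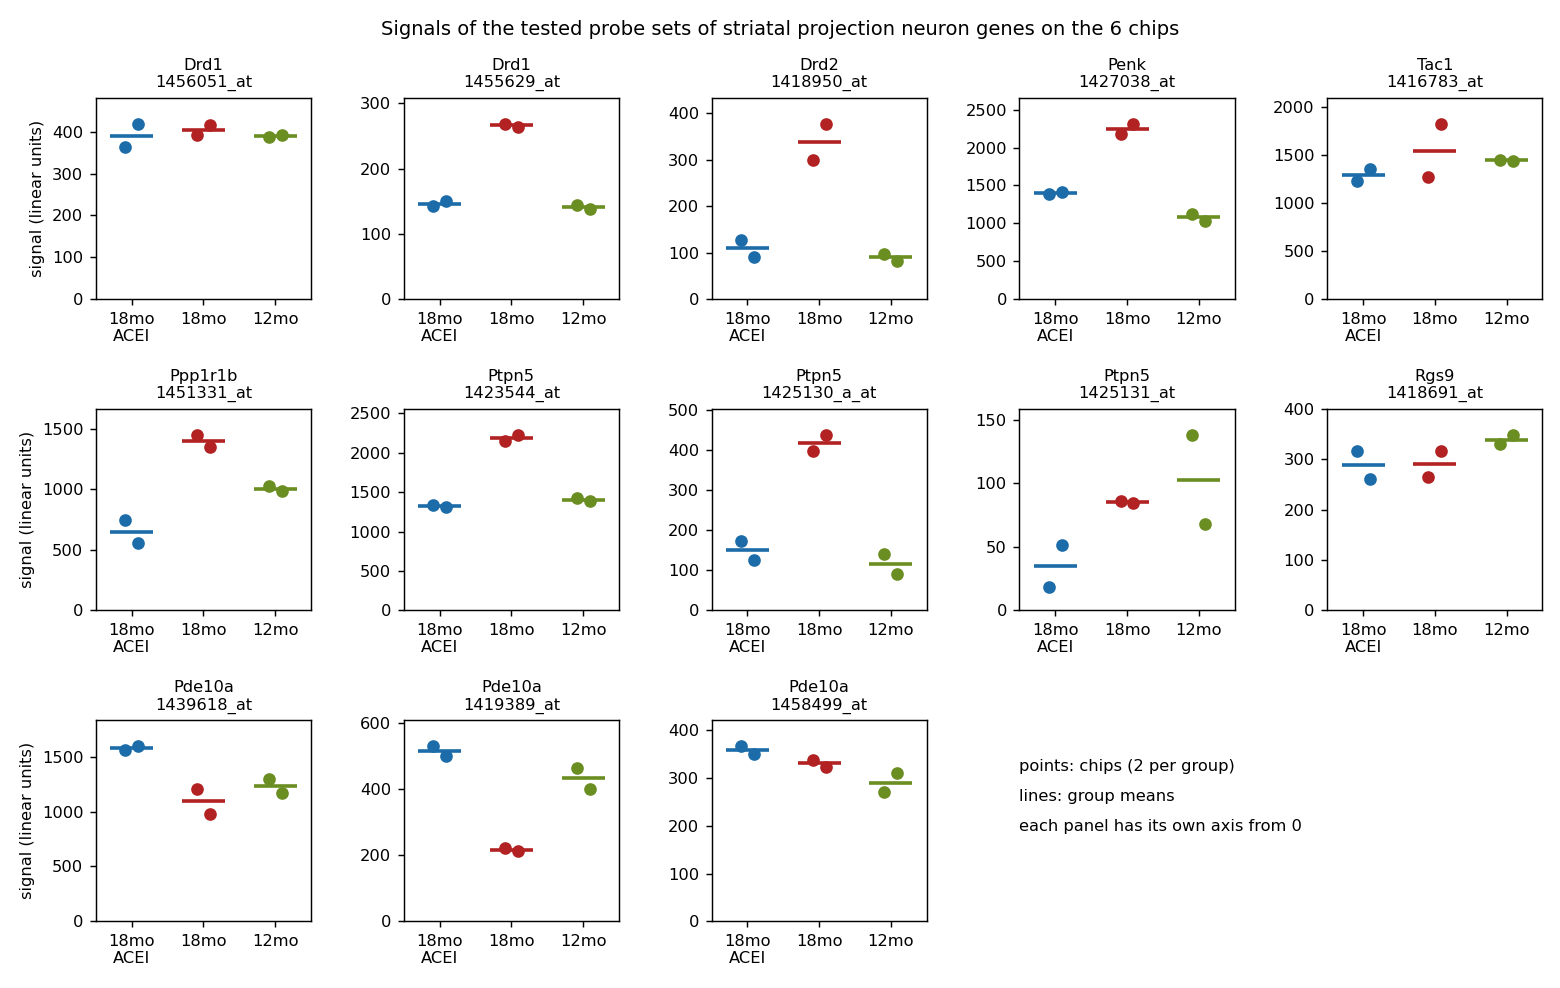
Signal (linear units, vertical axis) of the 13 tested probe sets of striatal projection neuron genes on the 6 chips, by group (horizontal axis). Each point is a chip and each line a mean of 2 chips. Each panel has its own axis from 0. Drd2, Penk, Ppp1r1b and Ptpn5 (1423544_at) stand highest on the Tg-18mo chips, at 299 and 376, 2177 and 2308, 1445 and 1352, and 2149 and 2222, while Pde10a (1419389_at) stands lowest there, at 223 and 211.

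Of the neuropeptide precursors, Penk had the Tg-18mo pattern and Tac1 did not. Penk, the enkephalin precursor (1427038_at), gave 1386 and 1412 in Tg-18mo-ACEI, 2177 and 2308 in Tg-18mo, and 1124 and 1031 in Tg-12mo. The 3 groups did not overlap, with Tg-18mo highest, Tg-18mo-ACEI between and Tg-12mo lowest, and means of 1399 ± 18.3 in Tg-18mo-ACEI, 2242 ± 92.8 in Tg-18mo and 1078 ± 65.7 in Tg-12mo (SD, n = 2 each). Penk was 1.6-fold lower in Tg-18mo-ACEI than in Tg-18mo (log2 difference -0.68, SE 0.06) and 2.08-fold higher in Tg-18mo than in Tg-12mo (1.06, SE 0.06). In Tg-18mo-ACEI it was also 1.3-fold higher than in Tg-12mo (0.38, SE 0.06). Tac1, the substance P precursor (1416783_at), gave 1226 and 1358 in Tg-18mo-ACEI, 1271 and 1820 in Tg-18mo, and 1447 and 1440 in Tg-12mo. A single Tg-18mo chip was high for Tac1 and the other lay among the Tg-18mo-ACEI chips, so the group mean of 1545 ± 388 in Tg-18mo had a wide spread, beside 1292 ± 93.2 in Tg-18mo-ACEI and 1443 ± 5.23 in Tg-12mo (SD, n = 2 each). The log2 difference of Tac1 was -0.24 (SE 0.14) for Tg-18mo-ACEI minus Tg-18mo, and it became -0.50 when Tg-18mo replicate 1 was left out and 0.02 when replicate 2 was. It was 0.08 for Tg-18mo minus Tg-12mo and -0.16 for Tg-18mo-ACEI minus Tg-12mo (SE 0.14 each).

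Inside the cell, Ppp1r1b encodes DARPP-32, an inhibitor of protein phosphatase 1 once it has been phosphorylated by the cAMP-dependent kinase. Its probe set (1451331_at) gave 742 and 557 in Tg-18mo-ACEI, 1445 and 1352 in Tg-18mo, and 1025 and 986 in Tg-12mo. No groups overlapped, and unlike Penk the lowest chips were those of Tg-18mo-ACEI. The means were 650 ± 131 in Tg-18mo-ACEI, 1399 ± 65.9 in Tg-18mo and 1006 ± 27.3 in Tg-12mo (SD, n = 2 each). Ppp1r1b was 2.15-fold lower in Tg-18mo-ACEI than in Tg-18mo (log2 difference -1.12, SE 0.12) and 1.39-fold higher in Tg-18mo than in Tg-12mo (0.48, SE 0.12). It was 1.55-fold lower in Tg-18mo-ACEI than in Tg-12mo (-0.65, SE 0.12).

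Ptpn5 encodes STEP, a tyrosine phosphatase that removes activating phosphates from kinases and glutamate receptor subunits. The brightest of its 3 tested probe sets (1423544_at) gave 1339 and 1307 in Tg-18mo-ACEI, 2149 and 2222 in Tg-18mo, and 1424 and 1383 in Tg-12mo. Both Tg-18mo chips were high, and the Tg-18mo-ACEI chips lay just below the Tg-12mo chips without overlap. The means were 1323 ± 23.2 in Tg-18mo-ACEI, 2186 ± 52 in Tg-18mo and 1403 ± 29 in Tg-12mo (SD, n = 2 each). Ptpn5 was 1.65-fold lower in Tg-18mo-ACEI than in Tg-18mo (log2 difference -0.72, SE 0.05), 1.56-fold higher in Tg-18mo than in Tg-12mo (0.64, SE 0.05), and differed by -0.09 (SE 0.05) between Tg-18mo-ACEI and Tg-12mo. The second probe set (1425130_a_at), of a type that can read several transcripts of its gene, gave 173 and 126 in Tg-18mo-ACEI, 398 and 436 in Tg-18mo, and 139 and 89.6 in Tg-12mo. Its differences had the same signs against Tg-18mo and were wider, -1.50 (SE 0.24) for Tg-18mo-ACEI minus Tg-18mo and 1.90 (SE 0.24) for Tg-18mo minus Tg-12mo, while Tg-18mo-ACEI and Tg-12mo overlapped. The third (1425131_at) gave 18.6 and 51.6 in Tg-18mo-ACEI, 86.1 and 84.5 in Tg-18mo, and 138 and 68.2 in Tg-12mo, with Tg-18mo and Tg-12mo overlapping. On this dim probe set the log2 difference was -1.46 (SE 0.53) for Tg-18mo-ACEI minus Tg-18mo and -1.65 (SE 0.53) for Tg-18mo-ACEI minus Tg-12mo, and without Tg-18mo-ACEI replicate 1 these were -0.72 and -0.91.

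Rgs9 encodes a regulator that shortens signalling by the G proteins of dopamine and opioid receptors. Its tested probe set (1418691_at) gave 316 and 262 in Tg-18mo-ACEI, 266 and 317 in Tg-18mo, and 331 and 348 in Tg-12mo. The groups at 18 months overlapped, and both Tg-12mo chips lay above them. The means were 289 ± 38.5 in Tg-18mo-ACEI, 291 ± 36.2 in Tg-18mo and 340 ± 11.7 in Tg-12mo (SD, n = 2 each), and the log2 differences were -0.01 for Tg-18mo-ACEI minus Tg-18mo, -0.23 for Tg-18mo minus Tg-12mo and -0.24 for Tg-18mo-ACEI minus Tg-12mo (SE 0.14 each).

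Pde10a encodes the phosphodiesterase that degrades cAMP and cGMP in striatal projection neurons, and none of its 3 tested probe sets had its highest chips in Tg-18mo. The brightest (1439618_at) gave 1561 and 1592 in Tg-18mo-ACEI, 1206 and 978 in Tg-18mo, and 1296 and 1166 in Tg-12mo. Both Tg-18mo-ACEI chips were above the 4 others, and the Tg-18mo and Tg-12mo chips overlapped. The means were 1576 ± 22.3 in Tg-18mo-ACEI, 1092 ± 162 in Tg-18mo and 1231 ± 91.9 in Tg-12mo (SD, n = 2 each). On it Pde10a was 1.44-fold higher in Tg-18mo-ACEI than in Tg-18mo (log2 difference 0.54, SE 0.10) and 1.28-fold higher in Tg-18mo-ACEI than in Tg-12mo (0.36, SE 0.10), and Tg-18mo minus Tg-12mo was -0.18 (SE 0.10). The second (1419389_at) gave 528 and 500 in Tg-18mo-ACEI, 223 and 211 in Tg-18mo, and 464 and 401 in Tg-12mo. Here the Tg-18mo chips were low, with Pde10a 2.37-fold higher in Tg-18mo-ACEI than in Tg-18mo (1.24, SE 0.11) and 1.99-fold lower in Tg-18mo than in Tg-12mo (-0.99, SE 0.11). The third (1458499_at) gave 366 and 350 in Tg-18mo-ACEI, 338 and 324 in Tg-18mo, and 270 and 310 in Tg-12mo. Its groups did not overlap, but the log2 differences were small, 0.11 for Tg-18mo-ACEI minus Tg-18mo, 0.19 for Tg-18mo minus Tg-12mo and 0.31 for Tg-18mo-ACEI minus Tg-12mo (SE 0.12 each).

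**Figure D2:**
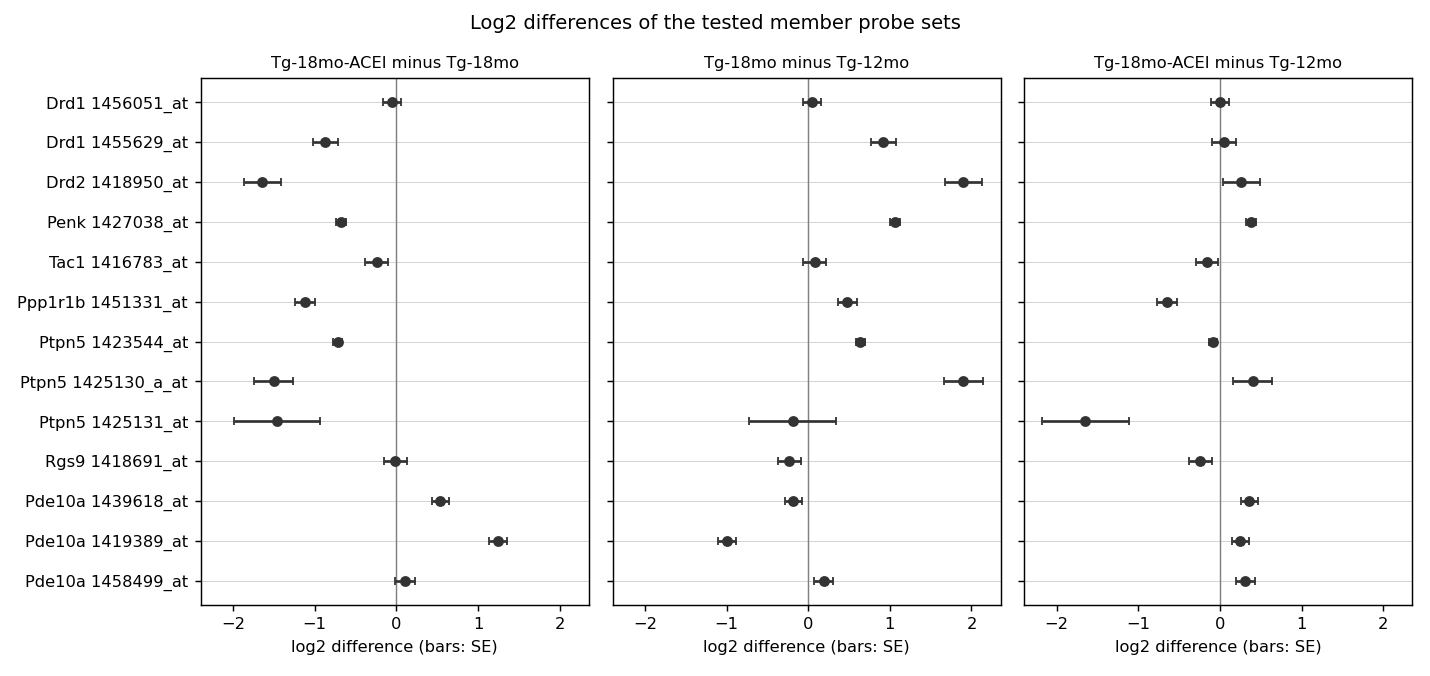
Log2 differences of the 13 tested probe sets (rows) in the 3 comparisons (panels). Points are limma estimates and bars their SE. Left of 0 in the first panel lie Drd2 at -1.64 and Ppp1r1b at -1.12, and right of it Pde10a (1419389_at) at 1.24.

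Set side by side, the genes differed in where the Tg-18mo-ACEI chips lay relative to the Tg-12mo chips. For Drd2 and the dimmer Drd1 probe set the Tg-18mo-ACEI and Tg-12mo chips overlapped. For Penk both Tg-18mo-ACEI chips lay between those of Tg-12mo and Tg-18mo, at 1386 and 1412. For Ppp1r1b they lay below both other groups, at 742 and 557, and for the brightest Pde10a probe set above both, at 1561 and 1592. For Ptpn5 (1423544_at) they lay just below the Tg-12mo chips, with a log2 difference of -0.09 beside one of -0.72 from Tg-18mo.

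Counted over all 13 tested probe sets, 2 were higher and 6 lower in Tg-18mo-ACEI than in Tg-18mo at a limma adjusted p under 0.05, against 15.9% higher and 17.7% lower among all tested probe sets. The median log2 difference was -0.68, and -0.04 over all tested probe sets. In Tg-18mo against Tg-12mo, 6 were higher and 1 lower, where 25.9% of all tested probe sets were higher and 21.5% lower, with a median of 0.19 against 0.05. In Tg-18mo-ACEI against Tg-12mo, 2 were higher and 2 lower, where 22.3% were higher and 17.7% lower, and both medians were 0.05. With each gene represented by its brightest probe set, 1 gene was higher and 4 were lower in Tg-18mo-ACEI than in Tg-18mo, where 12.6% of all genes tested by their brightest probe set were higher and 21.7% lower. In Tg-18mo, 4 were higher and 0 lower than in Tg-12mo, where 28% of those genes were higher and 21% lower. Groups did not overlap, with Tg-18mo-ACEI above Tg-18mo for 3 and below it for 7 probe sets (31.1% and 40.3% of all tested probe sets), Tg-18mo above Tg-12mo for 8 and below it for 2 (40.9% and 33.6%), and Tg-18mo-ACEI above Tg-12mo for 4 and below it for 5 (39.6% and 31.4%). Since the genes were chosen on these comparisons, nothing is read from the counts. In Tg-18mo-ACEI against Tg-12mo the count higher was 1 without either Tg-18mo-ACEI replicate and 3 without Tg-12mo replicate 1. The count lower there was 1 when Tg-18mo-ACEI replicate 1, either Tg-18mo replicate or Tg-12mo replicate 1 was left out. In Tg-18mo against Tg-12mo the count lower was 2 without Tg-18mo replicate 1.

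To describe how far the pattern extended, 34 other genes with a known place in striatal projection neurons were examined, each by its brightest probe set. Of these, 28 were tested, Drd3, Chrm4 and Gpr149 had signals below the limit, and 3 were not analysed here. This list and the gene lists further below were also chosen with earlier results of these data known. Their counts and adjusted p-values come from the same chips and are a description, not an independent test of the pattern. In Tg-18mo-ACEI against Tg-18mo, 3 of the 28 were higher and 13 were lower, or 10.7% and 46.4%, where 12.6% and 21.7% of the 12325 genes tested by their brightest probe set were. The median log2 difference was -0.25, and -0.08 over these genes. The median of the list became -0.25 and -0.27 when replicate 1 or 2 of Tg-18mo-ACEI was dropped. It became -0.29 and -0.16 when replicate 1 or 2 of Tg-18mo was dropped. In each of these fits fewer genes of the list passed as lower, and fewer of all tested probe sets did. In Tg-18mo against Tg-12mo, 10 were higher and 5 lower, or 35.7% and 17.9%, where 28% and 21% of the genes were, with a median of 0.25 against 0.06. In Tg-18mo-ACEI against Tg-12mo, 6 were higher and 3 lower, or 21.4% and 10.7%, where 20.1% and 20.6% were, with a median of 0.02 against 0.01. Without Tg-18mo-ACEI replicate 2 the median of the list there was 0.05, and fewer of its genes passed as higher.

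Several of these genes had the Tg-18mo pattern of Drd2 and Penk. Adcy5, the adenylyl cyclase on which striatal dopamine receptors act, gave 2085 and 1947 in Tg-18mo-ACEI, 2942 and 3128 in Tg-18mo, and 1750 and 1859 in Tg-12mo. It fell in Tg-18mo-ACEI against Tg-18mo (log2 difference -0.59, SE 0.06, adjusted p = 2.3e-04) and was higher in Tg-18mo than in Tg-12mo (0.75, SE 0.06, adjusted p = 4.2e-05). Kcnj4, an inward rectifier potassium channel, gave 389 and 464 in Tg-18mo-ACEI, 654 and 672 in Tg-18mo, and 303 and 321 in Tg-12mo, with differences of -0.64 (adjusted p = 0.003) and 1.09 (adjusted p = 1.1e-04) in the same comparisons. Scn4b, a sodium channel subunit, gave 541 and 546 in Tg-18mo-ACEI, 729 and 737 in Tg-18mo, and 350 and 433 in Tg-12mo, with differences of -0.43 (adjusted p = 0.017) and 0.91 (adjusted p = 2.6e-04). In these 3 genes the Tg-18mo chips were above all others. Pdyn, the dynorphin precursor of the direct pathway, gave 144 and 160 in Tg-18mo-ACEI, 212 and 252 in Tg-18mo, and 104 and 95.1 in Tg-12mo, with differences of -0.61 (adjusted p = 0.035) and 1.22 (adjusted p = 9.1e-04). Ikzf1, a transcription factor, gave 172 and 187 in Tg-18mo-ACEI, 283 and 238 in Tg-18mo, and 163 and 161 in Tg-12mo, with differences of -0.54 (adjusted p = 0.031) and 0.68 (adjusted p = 0.0075). The second of these was 0.56 without Tg-18mo replicate 1 (adjusted p = 0.071).

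Other genes of the list were low on the Tg-18mo-ACEI chips alone. Isl1, a transcription factor of direct pathway neurons, gave 83.1 and 109 in Tg-18mo-ACEI, 221 and 197 in Tg-18mo, and 195 and 192 in Tg-12mo. It was lower in Tg-18mo-ACEI than in Tg-18mo (log2 difference -1.13, SE 0.19, adjusted p = 0.0029) and than in Tg-12mo (-1.03, adjusted p = 0.0034). Foxp2, a forkhead transcription factor, gave 116 and 144 in Tg-18mo-ACEI, 288 and 269 in Tg-18mo, and 182 and 255 in Tg-12mo, with a difference of -1.10 (SE 0.20, adjusted p = 0.0041) between Tg-18mo-ACEI and Tg-18mo. Between Tg-18mo-ACEI and Tg-12mo it differed by -0.73 (adjusted p = 0.02), and by -0.58 (adjusted p = 0.12) when Tg-18mo-ACEI replicate 1 was left out and -0.49 (adjusted p = 0.098) when Tg-12mo replicate 2 was. Six3, a homeobox gene of indirect pathway precursors, gave 103 and 105 in Tg-18mo-ACEI, 223 and 167 in Tg-18mo, and 167 and 139 in Tg-12mo. Between Tg-18mo-ACEI and Tg-12mo Six3 differed by -0.55, short of the threshold (adjusted p = 0.066). Its difference of -0.89 between Tg-18mo-ACEI and Tg-18mo (adjusted p = 0.012) missed the threshold without Tg-18mo-ACEI replicate 1 (adjusted p = 0.058), Tg-18mo-ACEI replicate 2 (adjusted p = 0.059) or Tg-18mo replicate 1 (-0.68, adjusted p = 0.1).

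A few genes ran against the pattern or outside it. Gprin3, a modulator of D2 receptor signalling, gave 514 and 517 in Tg-18mo-ACEI, 116 and 127 in Tg-18mo, and 175 and 189 in Tg-12mo. It had the widest difference of the list, 2.09 on the log2 scale (SE 0.14, adjusted p = 2.0e-05) between Tg-18mo-ACEI and Tg-18mo, and it was also higher in Tg-18mo-ACEI than in Tg-12mo (1.50, adjusted p = 9.0e-05). In Tg-18mo it was lower than in Tg-12mo (-0.59, adjusted p = 0.0081). Zfp503, a zinc finger gene of striatal development, gave 459 and 386 in Tg-18mo-ACEI, 323 and 226 in Tg-18mo, and 592 and 443 in Tg-12mo, lowest on the Tg-18mo chips. Its difference was -0.92 for Tg-18mo minus Tg-12mo (adjusted p = 0.0054) and 0.64 for Tg-18mo-ACEI minus Tg-18mo (adjusted p = 0.037). The second was 0.51 (adjusted p = 0.18) when Tg-18mo-ACEI replicate 1 was left out, 0.76 (adjusted p = 0.075) for Tg-18mo-ACEI replicate 2 and 0.38 (adjusted p = 0.22) for Tg-18mo replicate 2. Arpp21, a cAMP-regulated phosphoprotein, gave 3178 and 3051 in Tg-18mo-ACEI, 3462 and 3572 in Tg-18mo, and 5586 and 5192 in Tg-12mo, high only on the Tg-12mo chips (-0.61 for Tg-18mo minus Tg-12mo, adjusted p = 5.5e-05). Bcl11b, which encodes CTIP2, a transcription factor of striatal projection neurons and of hippocampal neurons alike, gave 5102 and 5274 in Tg-18mo-ACEI, 5244 and 5230 in Tg-18mo, and 4491 and 4460 in Tg-12mo. It differed by -0.01 (adjusted p = 0.83) between Tg-18mo-ACEI and Tg-18mo and by 0.23 (adjusted p = 0.0032) between Tg-18mo and Tg-12mo.

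**Figure D3:**
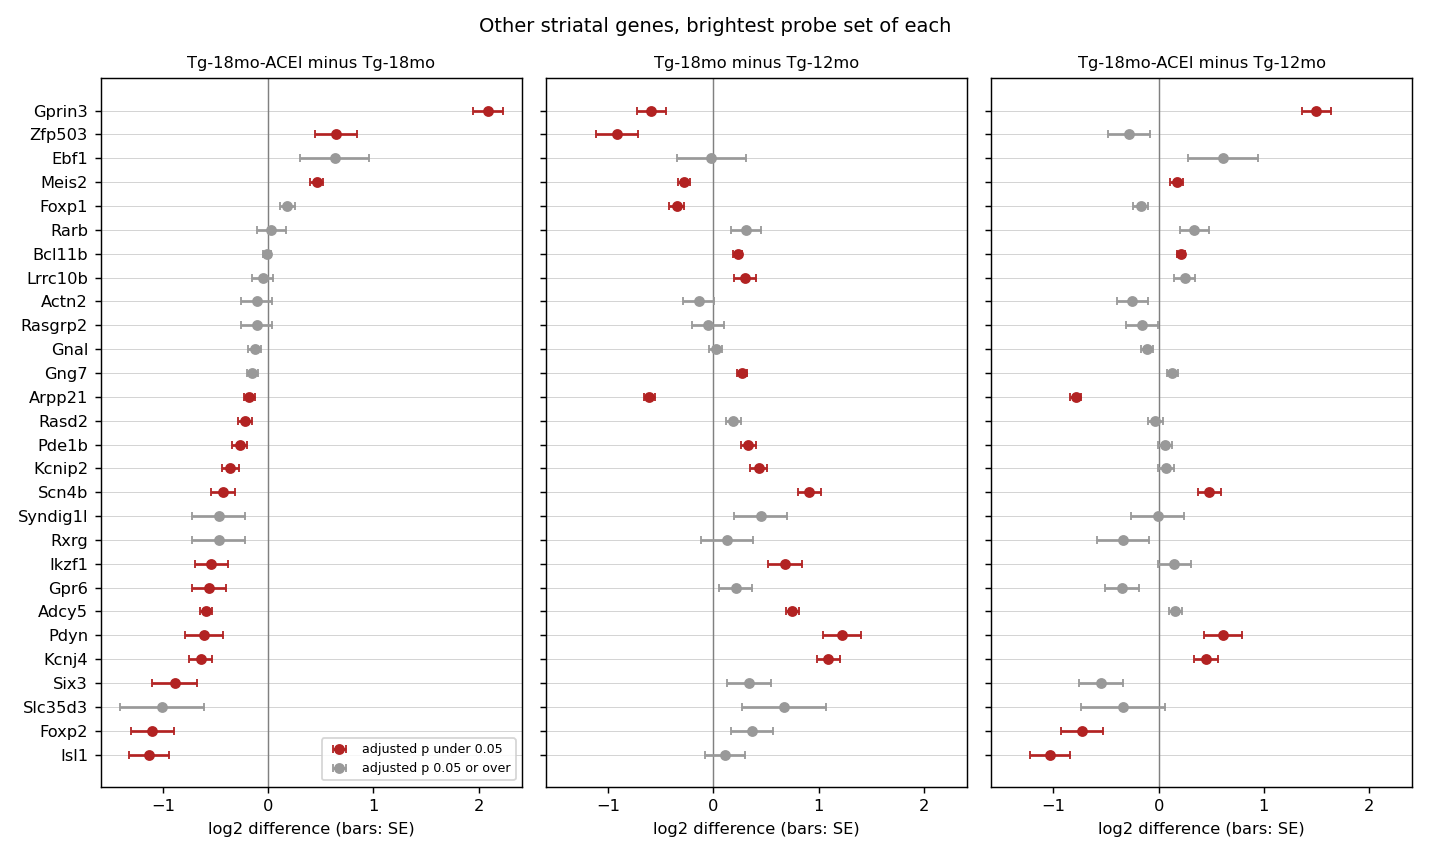
Log2 differences of the 28 tested other striatal genes (rows, ordered by the first panel) in the 3 comparisons (panels). Points are limma estimates of the brightest probe set, bars their SE, and colour marks an adjusted p under 0.05. Gprin3 lies at 2.09 and Isl1 at -1.13 in the first panel, and Pdyn at 1.22 and Kcnj4 at 1.09 in the second.

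Partners of the striatal genes in the cAMP cascade had calls in both directions in each comparison. Of 24 listed genes for G proteins, kinase subunits, phosphatases and phosphodiesterases, 19 were tested. In Tg-18mo-ACEI against Tg-18mo 5 were higher and 3 lower (median 0.04), or 26.3% and 15.8%, beside 12.6% and 21.7% of all genes tested by their brightest probe set. In Tg-18mo against Tg-12mo 2 were higher and 9 lower (median -0.10), or 10.5% and 47.4%, beside 28% and 21%. In Tg-18mo-ACEI against Tg-12mo 6 were higher and 10 lower (median -0.20), or 31.6% and 52.6%, beside 20.1% and 20.6%. Cdk5r1, the activator of the kinase CDK5 that phosphorylates DARPP-32, gave 4280 and 4024 in Tg-18mo-ACEI, 5257 and 5620 in Tg-18mo, and 4185 and 4383 in Tg-12mo. It fell in Tg-18mo-ACEI against Tg-18mo (-0.39, adjusted p = 0.0012) and was higher in Tg-18mo than in Tg-12mo (0.34, adjusted p = 0.0013). Prkaca, a catalytic subunit of the cAMP-dependent kinase, gave 5640 and 6024 in Tg-18mo-ACEI, 5682 and 5218 in Tg-18mo, and 8835 and 8057 in Tg-12mo, so both groups at 18 months were low (Tg-18mo minus Tg-12mo -0.63, adjusted p = 1.2e-04). Gnas, the stimulatory G protein subunit, differed by -0.65 between Tg-18mo and Tg-12mo (adjusted p = 1.2e-04), but by -0.09 after quantile normalization (adjusted p = 0.08). Ppp3ca, a calcineurin subunit, differed by -0.45 (adjusted p = 6.7e-04) in that comparison, with the sign turned to 0.17 after quantile normalization.

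In the peptide system, 7 of 12 listed genes were tested, and the opioid receptors Oprm1, Oprd1 and Oprk1 and the substance P receptor Tacr1 had signals below the limit. In Tg-18mo-ACEI against Tg-18mo 1 of the 7 was higher and 2 were lower (median -0.07), or 14.3% and 28.6%. In Tg-18mo against Tg-12mo 0 were higher and 1 lower (median 0.03), or 0% and 14.3%. In Tg-18mo-ACEI against Tg-12mo 0 were higher and 3 lower (median -0.10), or 0% and 42.9%. Among all genes tested by their brightest probe set these shares were 12.6% and 21.7%, 28% and 21%, and 20.1% and 20.6%. Tac2, the neurokinin B precursor and a relative of Tac1, gave 195 and 187 in Tg-18mo-ACEI, 348 and 331 in Tg-18mo, and 355 and 309 in Tg-12mo. It was lower in Tg-18mo-ACEI than in both other groups (-0.83, adjusted p = 0.0017, against Tg-18mo, and -0.80, adjusted p = 0.0015, against Tg-12mo). Pnoc, the nociceptin precursor, gave 456 and 437 in Tg-18mo-ACEI, 729 and 708 in Tg-18mo, and 536 and 667 in Tg-12mo, a difference of -0.69 between Tg-18mo-ACEI and Tg-18mo (adjusted p = 0.0023). Cpe, which trims peptide precursors such as proenkephalin, gave 16679 and 16224 in Tg-18mo-ACEI, 16923 and 17643 in Tg-18mo, and 28664 and 27781 in Tg-12mo. It differed by -0.71 between Tg-18mo and Tg-12mo (adjusted p = 1.7e-05) but by -0.04 after quantile normalization.

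Lists of genes that mark other cells or neighbouring regions were set beside the striatal genes. Their counts stand beside 12.6% higher and 21.7% lower in Tg-18mo-ACEI against Tg-18mo, and 28% higher and 21% lower in Tg-18mo against Tg-12mo, among all genes tested by their brightest probe set. The summed signal of the 8 measured striatal genes was 7060 and 6996 in Tg-18mo-ACEI, 9205 and 9789 in Tg-18mo, and 7132 and 6829 in Tg-12mo. Bright probe sets weigh most in such sums. Of those summed, Penk, Ptpn5, Ppp1r1b and Drd2 were high on both Tg-18mo chips, while Drd1, Tac1, Rgs9 and Pde10a did not have this pattern. Thalamic markers differed among themselves, with sums of 4580 and 4575 in Tg-18mo-ACEI, 5308 and 5403 in Tg-18mo, and 4309 and 4304 in Tg-12mo. Of the 7 tested, 2 were higher and 3 lower in Tg-18mo-ACEI than in Tg-18mo and 4 were higher and 1 lower in Tg-18mo than in Tg-12mo, and Gbx2, a thalamic transcription factor, was below the limit. Prkcd, a protein kinase C gene, and Rora, a nuclear receptor gene, were high on the Tg-18mo chips, with Prkcd at 1110 and 1149 in Tg-18mo-ACEI, 1657 and 1670 in Tg-18mo, and 1135 and 1137 in Tg-12mo. Tcf7l2, a transcription factor, was lowest on them, at 157 and 148 in Tg-18mo-ACEI, 102 and 90.4 in Tg-18mo, and 177 and 174 in Tg-12mo, and Lhx9 was likewise lowest at 298 and 300 in Tg-18mo. Interneuron markers summed to 31543 and 31883 in Tg-18mo-ACEI, 37285 and 37951 in Tg-18mo, and 37374 and 36783 in Tg-12mo. Among them, 0 were higher and 8 of 11 were lower in Tg-18mo-ACEI than in Tg-18mo, and 5 were higher and 2 lower in Tg-18mo than in Tg-12mo. Slc32a1, the vesicular GABA transporter, differed by -0.50 (adjusted p = 0.0012) and 1.12 (adjusted p = 1.6e-05) in these comparisons, and Npy by -0.61 (adjusted p = 1.0e-04) and 0.50 (adjusted p = 1.6e-04). Gad1, a GABA-synthesising enzyme, differed by -0.15 (adjusted p = 0.056) and -0.28 (adjusted p = 0.0022), and Vip, a peptide of interneurons, by -0.24 (adjusted p = 0.011) and -0.47 (adjusted p = 2.1e-04), so both were lower in Tg-18mo than in Tg-12mo. Gad2 differed by -0.37 (adjusted p = 0.001) and 0.54 (adjusted p = 7.7e-05) in these comparisons, and Lhx6 by -0.43 (adjusted p = 0.01) and 0.55 (adjusted p = 0.0021). Striatal projection neurons are themselves GABAergic and express Gad1, Gad2 and Slc32a1. The source cells of these signals were not tested. Choroid plexus markers, with sums of 23043 and 21171 in Tg-18mo-ACEI, 28917 and 31279 in Tg-18mo, and 47426 and 47031 in Tg-12mo, were lower in Tg-18mo-ACEI than in Tg-18mo for 11 of 12 genes (median -2.39). In Tg-18mo, 4 of the 12 were higher and 2 lower than in Tg-12mo (median 0.10). Most of the summed signal came from Ttr, the transthyretin gene, at 20358 and 18370 in Tg-18mo-ACEI, 17548 and 19806 in Tg-18mo, and 36598 and 36156 in Tg-12mo. The part of these cells in the differences of the striatal genes was not tested. All 8 dentate granule and all 9 CA pyramidal markers passed the limit in this hippocampal tissue, with sums of 16738 to 18871 and 18600 to 21933 over the chips. In Tg-18mo-ACEI against Tg-18mo, 2 dentate markers were higher and 1 lower, 2 CA markers were higher and 2 lower, 2 of 6 neocortical markers were higher and 0 lower, and microglia (2 and 2 of 6), astrocyte (3 and 2 of 5) and oligodendrocyte markers (0 and 3 of 5) are given as higher and lower counts. Of the midbrain dopamine neuron markers, Th, Slc6a3, Pitx3 and En1 were below the limit.

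**Figure D4:**
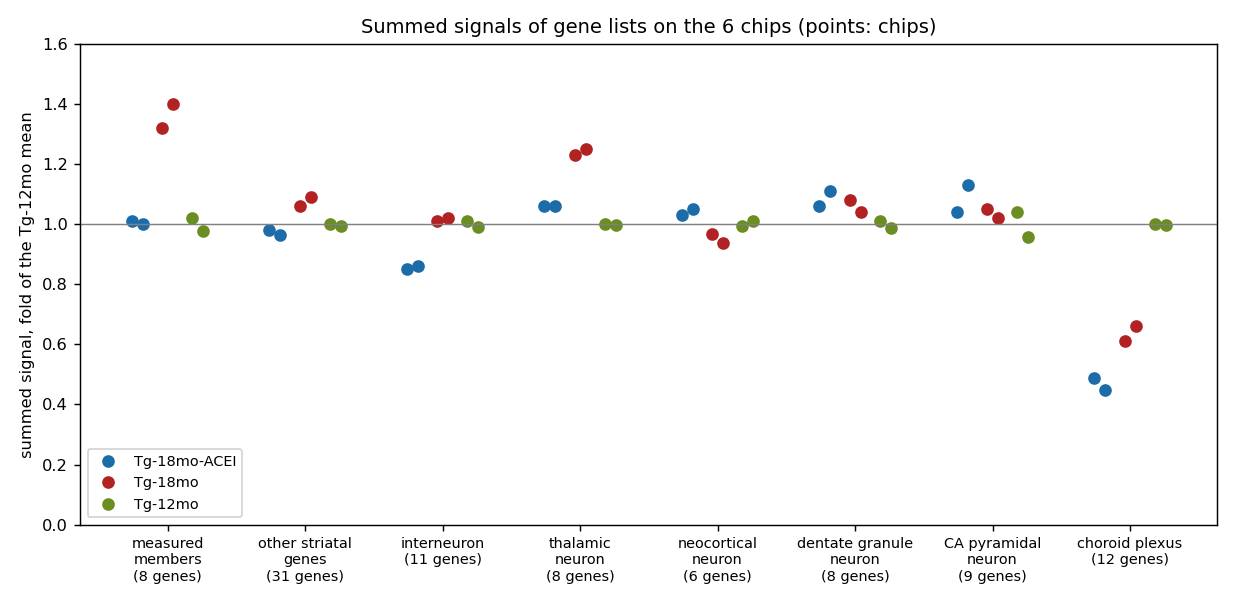
Summed signal of the gene lists shown on each chip, divided by the average of the Tg-12mo chips (vertical axis), by list (horizontal axis). The cAMP, peptide, midbrain dopamine neuron, microglia, astrocyte and oligodendrocyte lists are not shown. Points are chips and the line marks 1. Bright probe sets weigh most in each sum. The sum of the striatal genes, not each gene, stands at 1.01 and 1 for Tg-18mo-ACEI, 1.32 and 1.4 for Tg-18mo, and 1.02 and 0.978 for Tg-12mo.

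Genes with a pattern most like that of the striatal genes were found from the log2 signals on the 6 chips, each less its own mean, by the root mean square difference from the mean profile of the 8 measured genes. Among 21109 probe sets of other genes, the nearest were Gon4l (0.0207), Ryk (0.0295), Chd8 (0.0301), Clstn1 (0.0315) and Ctsd (0.0316). Clstn1 (1421860_at), the synaptic protein calsyntenin, gave 1801 and 1760 in Tg-18mo-ACEI, 2451 and 2612 in Tg-18mo, and 1781 and 1722 in Tg-12mo. Ctsd, the lysosomal protease cathepsin D, gave 4778 and 4598 in Tg-18mo-ACEI, 6351 and 6642 in Tg-18mo, and 4667 and 4716 in Tg-12mo. On both probe sets the Tg-18mo chips were high and the other 4 lay close together. A second, brighter Clstn1 probe set (1421861_at) was highest on the Tg-12mo chips, at 8514 and 7949 in Tg-18mo-ACEI, 9113 and 9489 in Tg-18mo, and 10982 and 10782 in Tg-12mo. For Drd2 alone the nearest were Rab6b (0.237), Pik3cd (0.248), H2-Aa (0.268), Dapk1 (0.279) and Arid1a (0.281). Rab6b, a Golgi GTPase of neurons, was near Drd2 on 1 probe set (1455924_at), which gave 692 and 696 in Tg-18mo-ACEI, 1469 and 1769 in Tg-18mo, and 496 and 511 in Tg-12mo. The other tested Rab6b probe sets differed among themselves. Probe set 1460617_s_at was also highest on the Tg-18mo chips, at 2592 and 2610 in Tg-18mo-ACEI, 3329 and 3344 in Tg-18mo, and 2815 and 3017 in Tg-12mo. Probe set 1434914_at was highest on the Tg-12mo chips. Probe set 1437107_at was lowest on the Tg-18mo chips, with 2675 and 2665 in Tg-18mo-ACEI, 382 and 361 in Tg-18mo, and 759 and 793 in Tg-12mo. The likeness was measured on single probe sets, and other probe sets of a gene need not share it. Likeness over 6 chips is a description of these chips.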

How the data were processed

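RNA was hybridised to Affymetrix MG430 2.0 arrays. The intensity values were deposited by the authors as linear signals made with GCOS and scaled to 600, and they were used without further normalization. Of 45101 probe sets, 64 controls were left out. Probe sets were named by the array annotation of the platform. The 23262 probe sets whose mean signal reached 100 in any group were fitted on the log2 scale with limma 3.58.1 in R 4.3.3 (3 group means, lmFit, eBayes with an intensity trend, 3 residual and 5.37 prior degrees of freedom), and p-values were adjusted over all of them (Benjamini-Hochberg, 0.05). The fit was tested on simulated data.

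The members, gene lists, tests and alternatives were chosen with earlier results of these data known. From the list of other striatal genes, up to 6 genes past the threshold per comparison were named by size of difference, with the brightest gene, up to 3 from the cAMP and peptide lists, and examples from the marker lists. Other settings tried were an added constant of 32, no filter, a filter at 100 on the mean of the 6 chips, quantile normalization, division by the chip median, only the 2 groups compared, a replicate block, no intensity trend, the methods' t-test, each chip left out, and the mean of a gene's probe sets. Python 3.11.15 with pandas 2.3.3 and matplotlib 3.10.9 made the tables and figures. The number of arrays limits the precision.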

Additional observations from a re-analysis of the deposited data

How the results depend on the processing

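With 2 pools a group, precision is set by the number of chips, and dim probe sets such as Ptpn5 1425131_at carry wide errors. No log2 difference of the 13 probe sets of striatal genes with a threshold call changed direction under any alternative run.

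The methods' t-test at an unadjusted p of 0.01 or less with a 2-fold difference, and after Benjamini-Hochberg adjustment, called fewer. For the striatal probe sets it called 1 and 0 higher and 0 and 0 lower in Tg-18mo-ACEI against Tg-18mo, 1 and 1 higher and 0 and 0 lower in Tg-18mo against Tg-12mo, and 0 in either direction in Tg-18mo-ACEI against Tg-12mo. Over all 23262 tested probe sets these rules called 435 and 44 higher and 111 and 27 lower in the first comparison. They called 251 and 564 higher and 183 and 495 lower in the second. In the third they called 198 and 9 higher and 132 and 13 lower. At an unadjusted p under 0.05 the t-test called 1 higher and 6 lower, 6 and 1, and 2 and 0 striatal probe sets in these comparisons. For the other striatal genes it called 1 and 0 higher and 0 and 0 lower, 1 and 2 higher and 0 and 1 lower, and 1 and 0 higher and 0 and 0 lower, and at an unadjusted p under 0.05 it called 2 and 11, 8 and 4, and 5 and 2. The share of all probe sets past an unadjusted p of 0.05 was not measured, so nothing is read from those counts.

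In Tg-18mo-ACEI against Tg-12mo, 1 striatal probe set was higher after quantile normalization or with no intensity trend, and 1 was lower with no filter, with the filter on the mean of the 6 chips, with only the 2 groups compared or with no intensity trend. Leaving out each chip in turn gave 1 to 3 higher and 1 to 2 lower there, and 1 to 2 lower in Tg-18mo against Tg-12mo. For the other striatal genes it gave 4 to 14 lower in Tg-18mo-ACEI against Tg-18mo and 3 to 6 higher in Tg-18mo-ACEI against Tg-12mo. The counts over all tested probe sets also fell when a chip of a compared group was left out. The median of the other striatal genes in Tg-18mo-ACEI against Tg-12mo was 0.19 with the mean of all tested probe sets of a gene. Quantile normalization reversed Ppp3ca (0.17) and Mbp (0.01) in Tg-18mo against Tg-12mo, and Gnas (0.02) and Prkar1b (0.01) in Tg-18mo-ACEI against Tg-12mo. The cause of these changes was not tested.

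Replicate numbers did not pair the chips. Deviations of same-numbered chips correlated at -0.03 between Tg-18mo-ACEI and Tg-18mo, -0.0519 between Tg-18mo-ACEI and Tg-12mo, and 0.0344 between Tg-18mo and Tg-12mo. With the replicate block, 2 striatal probe sets were higher and 6 lower in Tg-18mo-ACEI against Tg-18mo, 6 and 1 in Tg-18mo against Tg-12mo, and 2 and 2 in Tg-18mo-ACEI against Tg-12mo. Other striatal genes numbered 3 and 11, 10 and 5, and 5 and 3. Over all 23262 tested probe sets the block gave 3456 higher and 3762 lower in Tg-18mo-ACEI against Tg-18mo. It gave 5798 and 4766 in Tg-18mo against Tg-12mo, and 4962 and 3886 in Tg-18mo-ACEI against Tg-12mo.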
